A study of Homo sapiens with 12 samples.

Results

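The 35 genes described here act in homologous recombination and the response to DNA damage. They comprise 8 sensors and kinases of the damage response, 7 genes of DNA end resection, 10 genes of the BRCA group and 10 Fanconi anaemia genes. They were taken by gene symbol from the coding transcripts of the deposited files, which list 18650 coding genes, and all 35 were found. All samples came from 22Rv1, an established line of human prostate carcinoma, in a gene-edited form with C1111S-SF3B1 that every group shared. SF3B1 is a subunit of the SF3b complex, which recognises the branch site of introns in splicing. Whether the edited line was a single clone is not stated in the labels. The 4 groups of 3 libraries each were exposed to WX-02-23 at 20 µM for 3 h, to WX-02-43 at the same dose and time, to PladB at 10 nM for 3 h, or to the vehicle DMSO at 0.1% v/v, for which no time is stated in the labels. WX-02-23 and WX-02-43 are code names of compounds called stereoprobes in the labels, while PladB stands for pladienolide B, which binds and inhibits SF3b. All groups then received 4-thiouridine (100 µM, 1 h), a uridine analogue that newly made RNA takes up. Once alkylated it is copied as C in place of T, and a read that carries such a change, called a T>C read below, is taken to come from RNA made during the labelling. The design asks how the transcriptome changed after the stereoprobes or PladB.

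Homologous recombination mends a broken chromosome by copying the sister chromatid, so cells use it mainly after DNA has been replicated. The broken ends are first cut back to single strands, and proteins of the BRCA group then prepare these strands to find and invade the matching sequence. The Fanconi anaemia proteins act upstream of this at crosslinks between DNA strands. Inherited or tumour-borne loss of several of these genes, BRCA2 and ATM among them, is well known in prostate cancer, where it bears on the use of PARP inhibitors.

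Library totals ran from 24670716 to 42190854 reads, of which 12331501 to 21414162 lay in coding genes and 826620 to 2094217 of those were T>C reads. Levels below are TMM-scaled CPM, in which T>C reads are relative to all T>C reads of the library and all reads to all its reads. The 8 luminal markers of prostate summed to 2366 to 2714 CPM in WX-02-23, 2554 to 2685 in WX-02-43, 3490 to 3725 in PladB and 3015 to 3269 in DMSO libraries, so each treated group stood apart from DMSO. The 3 neuroendocrine markers, of which ENO2 gave most reads, summed to 206 to 228 CPM, 227 to 241, 273 to 314 and 209 to 256 in the same groups, and PladB lay above DMSO. The 3 stromal markers, mainly VIM, summed to 21.7 to 47.5 CPM over the 12 libraries, with COL1A2 at 0. Of the basal markers KRT5 and TP63 were at 0 and KRT14 reached 0.134 CPM, and of the blood markers CD74 was at 0 and PTPRC reached 0.513 CPM. The part of these markers in the results below was not tested. In such bulk samples, fewer cells of a type and less RNA per cell cannot be told apart. The libraries are 3′ end libraries without molecular identifiers in the files, so counting intervals and floors would cover counting error only. Of the 35 genes, 32 had enough T>C reads to be tested, with ATM, MRE11 and FANCB below the filter. All but FANCB were tested in all reads, and 34 in the labelled share, which is the share of a gene's reads that are T>C reads. FANCB, part of the Fanconi core complex, had no read in 11 of 12 libraries and 33 reads in PladB replicate 1. The 3′ end of ATRIP lies inside the annotated TREX1 gene on the same strand, and RAD51D shares its interval with the read-through gene RAD51L3-RFFL, so reads of these neighbours cannot be told apart. A further 7 members share sequence with a gene on the opposite strand (CHEK1, FANCA, FANCD2, FANCI, FANCL, RAD50 and RAD54L), and the setting for strand in the counting is not given in the sources used here.

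After PladB, 9 of the 34 members tested in all reads were called lower and 1 higher. BRCA1, BRIP1, BRCA2 and XRCC2 of the BRCA group fell, together with BLM, ATRIP, TOPBP1, FANCC and FANCE, and RAD51C was the gene that rose. Over all 13178 genes tested in the same way, 30.1% were called, 16.3% lower and 13.9% higher, so the members' total of 10 calls is close to that background. The members' median log2 fold change in all reads was -0.37, against -0.07 over all genes. Of the members 23 of 34 were below 0, and of all genes 7034 of 13178. In T>C reads 4 of 32 members were called, where BRCA1 and BLM fell and FANCF and RAD51C rose. The share called over all 10722 genes was 10.6%, 5.91% lower and 4.72% higher, which is again near the members' share. The members' median in T>C reads was -1.52, against -0.36 over all genes, but 7 members had no T>C read in any PladB library. With these 7 at the change that a floor of 3 counts per library allows, the members' median was -1.24. That floor was not applied to the median over all genes, so the 2 medians are unlike measures. How many of all genes had no T>C read in PladB was not counted, so no excess of the members is shown. These tests used edgeR with adjusted p under 0.05 as a call. Genes and ends said here to have fallen or risen are called ones. Called members were picked by these tests, so a lack of overlap between their groups is no separate evidence. The share of all genes without overlap was not counted. With T>C reads scaled by the library sizes of all reads, the median over all genes moved to -1.15 and 4.63% of all calls were higher rather than 44.4%, so the T>C changes below are relative to the other newly made transcripts of a library.

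**Figure D1:**
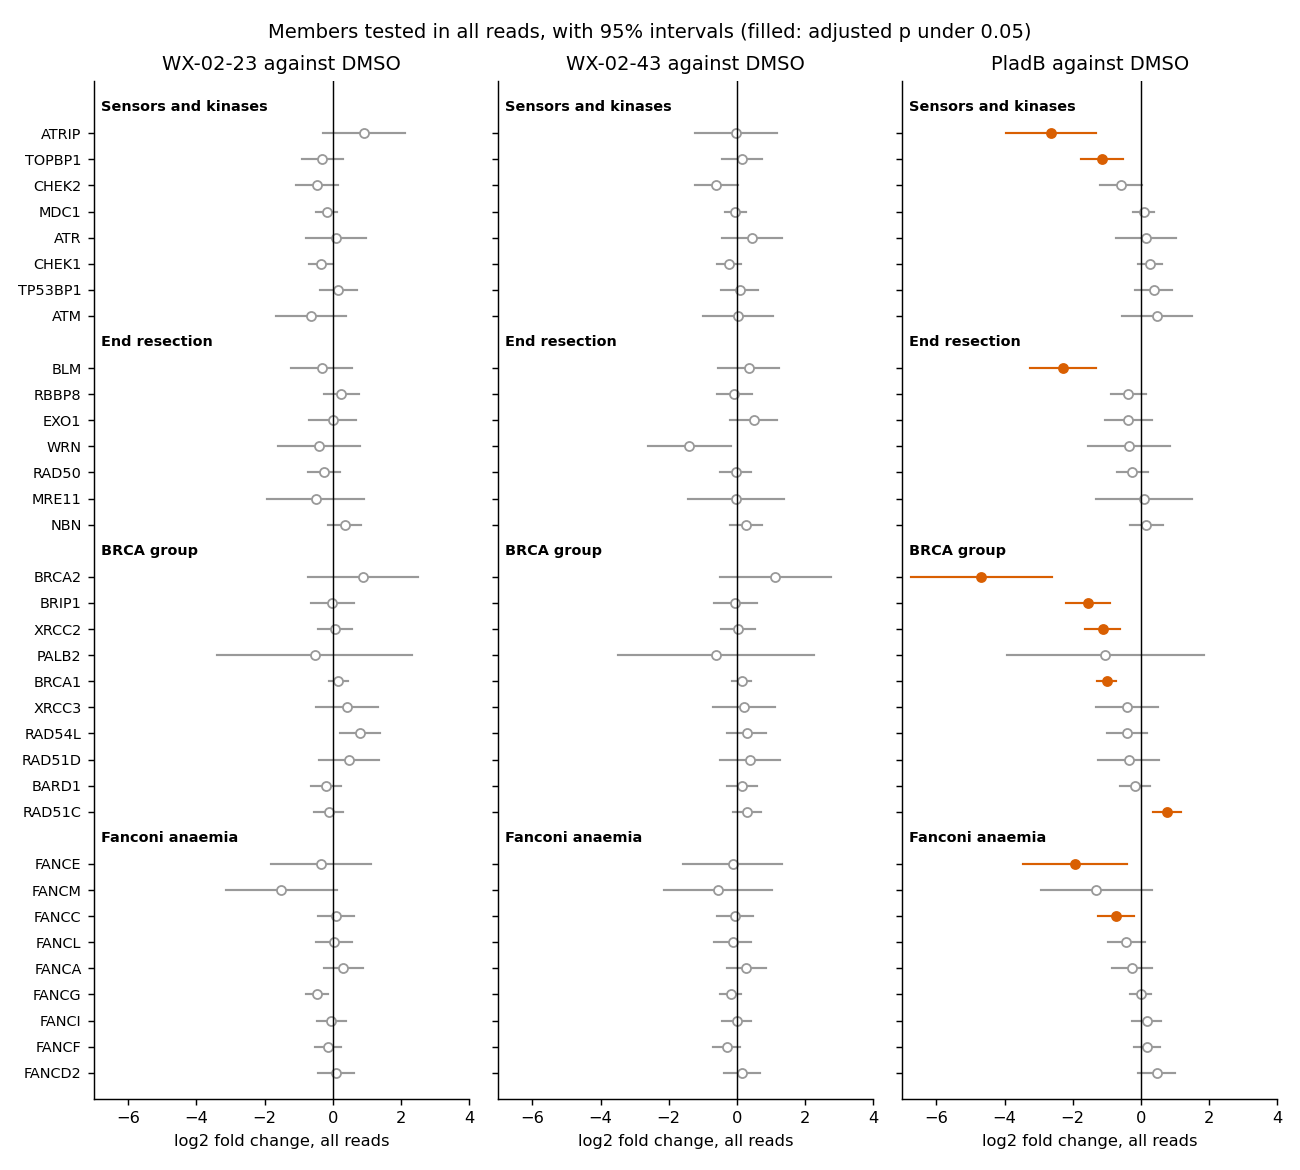
Log2 fold change in all reads of the 34 tested members, by role, for WX-02-23, WX-02-43 and PladB each against DMSO. Points are edgeR estimates and lines their 95% intervals, and filled points passed adjusted p under 0.05. In the PladB panel 9 filled points lie below 0 and RAD51C lies above it, and neither stereoprobe panel holds a filled point.

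Among the sensors and kinases, 2 of 8 fell in all reads after PladB, where 16.3% of all genes were called lower. None of the 7 tested in T>C reads was called, where 10.6% of all genes were. ATRIP is the partner that brings the kinase ATR to single-stranded DNA. It was at 10.9, 11.5 and 13.3 CPM in WX-02-23, 5.69, 5.61 and 7.51 in WX-02-43, 0.78, 1.25 and 1.02 in PladB and 6.86, 10.6 and 1.55 in DMSO libraries. Every PladB library lay below every DMSO library, though DMSO replicate 3 came close to them. The log2 change was -2.64 (SE 0.65, adjusted p = 0.00152), and no PladB library had a T>C read of ATRIP. TOPBP1, which activates ATR, was at 26.3, 21 and 15.9 CPM in WX-02-23, 24.7, 26.2 and 35.5 in WX-02-43, 12.9, 6.78 and 15.7 in PladB and 25.7, 28.4 and 24.2 in DMSO libraries. The PladB libraries lay below the DMSO libraries without overlap, at a log2 fold change of -1.14 (SE 0.30, adjusted p = 0.00283). CHEK1, the kinase that ATR activates, was not called and stood at 77.5 ± 7.89 CPM in PladB and 64.9 ± 12.9 CPM in DMSO libraries (SD, n = 3 each). The gene gave 125, 143 and 101 T>C reads in WX-02-23, 139, 102 and 154 in WX-02-43, 66, 57 and 94 in PladB and 257, 17 and 67 in DMSO libraries. The DMSO libraries alone spanned the values of all other groups for that gene. The CHEK1 interval used is 20935 bases long and holds 12197 reads over all libraries, against 5486 in a nested interval of 1827 bases, so part of its signal comes from outside the annotated short 3′ end. MDC1, which binds phosphorylated histone H2AX at breaks, gave 158, 132 and 102 T>C reads in WX-02-23, 136, 89 and 96 in WX-02-43, 91, 63 and 53 in PladB and 136, 119 and 38 in DMSO libraries. Its PladB and DMSO groups overlapped, with a log2 change in T>C reads of 0.42 and a 95% interval of -0.77 to 1.61. The other sensors were the kinases ATM, ATR and CHEK2 and the resection-limiting factor TP53BP1. Their changes in all reads ran from -0.58 (CHEK2, adjusted p = 0.159) to 0.46 (ATM, adjusted p = 0.551).

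Of the end resection genes, BLM alone was called, in both T>C and all reads. Over all genes, 10.6% were called in T>C reads and 30.1% in all reads. BLM is a RecQ helicase that unwinds DNA ahead of the resection nucleases and dissolves joined molecules later. The gene gave 41, 2 and 22 T>C reads in WX-02-23, 0, 11 and 69 in WX-02-43, 0, 0 and 0 in PladB and 66, 36 and 40 in DMSO libraries. No T>C read of BLM was found in PladB, while every DMSO library held at least 36. Against a floor of 3 counts per library, T>C reads were at least 7.92-fold lower in PladB libraries (adjusted p = 0.0337). That call was lost when DMSO replicate 1 (adjusted p = 0.0761), DMSO replicate 2 (0.0553), PladB replicate 1 (0.0775), PladB replicate 2 (0.0557) or PladB replicate 3 (0.0702) was left out. In all reads BLM was at 16.6, 6.67 and 6.7 CPM in WX-02-23, 15.3, 16 and 16.6 in WX-02-43, 3.56, 1.11 and 2.98 in PladB and 14.5, 12.3 and 10.9 in DMSO libraries. Here too PladB and DMSO did not overlap, with PladB lower, and the log2 fold change was -2.29 (SE 0.48, adjusted p = 0.000219). In contrast to BLM, the MRN complex of MRE11, RAD50 and NBN, which binds the broken ends first, gave changes in all reads of 0.09, -0.25 and 0.16. None of the 3 passed, with adjusted p = 0.454 at the lowest. RBBP8, the partner of MRN also known as CtIP, the nuclease EXO1 and the helicase WRN were at -0.37, -0.37 and -0.35. Their 95% intervals were -0.88 to 0.14, -1.06 to 0.31 and -1.55 to 0.86. All 6 resection genes tested in T>C reads had estimates below 0, but 1 of them passed. Over all genes tested in T>C reads, 6484 of 10722 estimates were below 0.

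In the BRCA group 4 of 10 genes were called lower and 1 higher in all reads after PladB, beside 16.3% lower and 13.9% higher over all genes. The group's median log2 change was -0.71, against -0.07 over all genes. Genes of 11 to 20 exons had a median of -0.19 and those of more than 20 exons -0.34. The group was not tested as a set. BRCA1 was the member with the lowest adjusted p in all reads and in the labelled share. Its protein forms a ubiquitin ligase with BARD1 and helps to commit broken ends to recombination. The interval counted for it is 1383 bases at chr17:41196312-41197694 (hg19, minus strand). In all reads BRCA1 was at 129.8, 135 and 118 CPM in WX-02-23, 129, 131 and 119 in WX-02-43, 55.8, 54.2 and 60.5 in PladB and 128, 94.2 and 119.9 in DMSO libraries. The 3 PladB libraries lay close together and below every library of the other groups. They averaged 56.8 ± 3.29 CPM, against 114 ± 17.6 CPM in DMSO libraries (SD, n = 3 each), a log2 fold change of -1.0 (SE 0.14, adjusted p = 4.58e-07). BRCA1 gave 49, 93 and 44 T>C reads in WX-02-23, 57, 90 and 108 in WX-02-43, 4, 0 and 1 in PladB and 128, 59 and 60 in DMSO libraries. PladB libraries held 5 such reads in all, and no library of another group held fewer than 44. The log2 change in T>C reads was -4.68 (SE 1.14, adjusted p = 0.00463). A noncoding transcript of the gene gives a second, wider window of 81029 bases, and its reads outside the coding interval were at 61.6 ± 2.90 CPM in PladB and 141 ± 18.1 CPM in DMSO libraries (SD, n = 3 each, not tested).

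For BARD1, the partner of BRCA1, no test passed, and the difference between the 2 genes was not itself tested. BARD1 gave 180, 81 and 128 T>C reads in WX-02-23, 99, 190 and 57 in WX-02-43, 84, 57 and 55 in PladB and 95, 119 and 77 in DMSO libraries. The PladB and DMSO ranges overlapped, and neither T>C reads (log2 0.34, adjusted p = 0.803) nor all reads (-0.17, adjusted p = 0.614) passed. BRIP1, a helicase that binds BRCA1, was at 16.7, 29.2 and 19.3 CPM in WX-02-23, 21, 16.3 and 26.6 in WX-02-43, 6.24, 9.21 and 6.99 in PladB and 26.2, 19.4 and 20.1 in DMSO libraries in all reads. All 3 PladB libraries lay below every other library. The log2 change was -1.55 (SE 0.32, adjusted p = 0.000203). XRCC2, a recombination protein, was at 47.2, 29.9 and 34.7 CPM in WX-02-23, 45.1, 38.9 and 24.5 in WX-02-43, 17.3, 13.3 and 18.3 in PladB and 30.6, 41 and 34.9 in DMSO libraries, with the PladB libraries below all others. It fell by 1.12 in log2 (SE 0.25, adjusted p = 0.000586), and its T>C reads did not pass (log2 -1.46, adjusted p = 0.276). BRCA2, a tumour suppressor that acts on the resected strands, had few reads: 67, 78 and 201 reads in WX-02-23, 121, 150 and 135 in WX-02-43, 0, 0 and 6 in PladB and 34, 37 and 116 in DMSO libraries. In PladB, replicates 1 and 2 had none, and the log2 change was -4.68 with a 95% interval of -6.73 to -2.62 (adjusted p = 0.000386). All 37 reads of BRCA2 in DMSO replicate 2 were T>C reads and none of the 34 and 116 in the other two were. Whether such reads came from separate molecules was not tested. PALB2, which links BRCA1 to BRCA2, was sparser still and did not pass (0, 0 and 63 reads in PladB and 46, 90 and 18 in DMSO libraries). The recombination genes RAD51D and XRCC3 and the translocase RAD54L had changes in all reads of -0.36, -0.41 and -0.41, none of which passed.

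**Figure D2:**
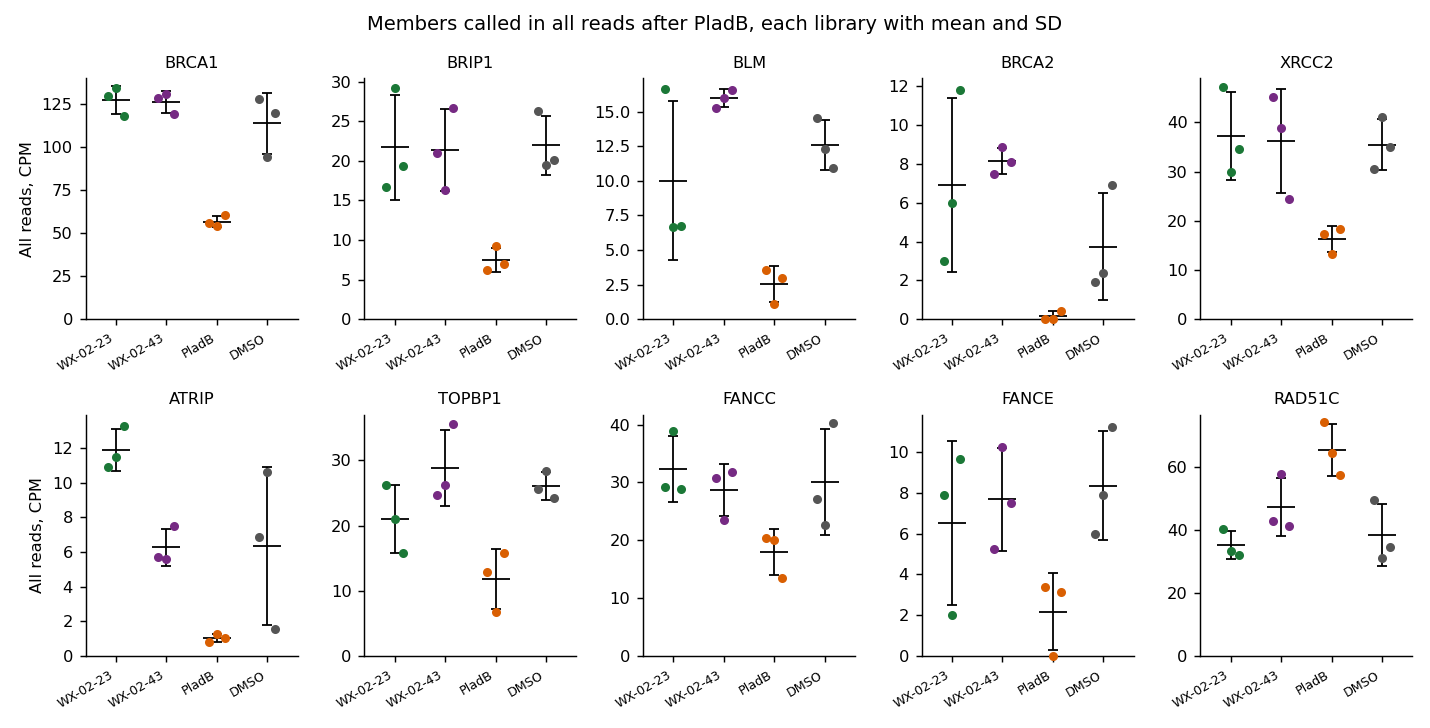
CPM in all reads for the 10 members called after PladB. Points are libraries, horizontal bars the group mean and error bars the SD (n = 3). PladB libraries lie below DMSO libraries for 9 genes, with ATRIP in DMSO replicate 3 at 1.55 CPM close to them, and above them for RAD51C. The genes were picked by the test on these same values, so the lack of overlap is no separate evidence.

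RAD51C, whose protein forms a complex with XRCC3 in recombination, was the member called higher in both T>C and all reads. In all reads it was at 40.2, 33.4 and 32.1 CPM in WX-02-23, 42.8, 57.9 and 41.2 in WX-02-43, 74.3, 64.5 and 57.7 in PladB and 49.6, 31.2 and 34.6 in DMSO libraries. The PladB libraries lay above every other library except for WX-02-43 replicate 2, which was above the lowest of them by less than 1 CPM. The log2 change against DMSO was 0.77 (SE 0.20, adjusted p = 0.00333). In T>C reads it was 1.98 (SE 0.63, adjusted p = 0.0348), a call lost under scaling to all reads (log2 1.18, adjusted p = 0.206). It was also lost without DMSO replicate 1 (adjusted p = 0.0758), DMSO replicate 2 (0.149), DMSO replicate 3 (0.0677), PladB replicate 1 (0.0800) or PladB replicate 3 (0.0747). The gene has 2 separate 3′ ends in the files, 38962 bases apart. The first belongs to a short transcript of 2 exons, NM_002876.3, counted at chr17:56772555-56772741, and the last to the transcript of 9 exons, NM_058216.2, at chr17:56811584-56811703 (both hg19, plus strand). The last 30 bases of a GENCODE 29 transcript for each end are shown (GRCh38), because the reads moved at the first counted end. The first match to the polyadenylation hexamers AATAAA or ATTAAA is in capitals. By their coordinates these transcript ends lie farther apart than the counted ends, so they cannot be taken as the ends that were counted. At the last end a match to ATTAAA, left in lower case, overlaps the final base of the marked AATAAA.
RAD51C first end, NM_002876.3, GRCh38 chr17:58695307-58695336, plus strand: tatgtgcATTAAAcaaaaattagcttacta
RAD51C last end, NM_058216.2, GRCh38 chr17:58735582-58735611, plus strand: tgcttaAATAAAttaaagatttcaattctc

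From the first base of the marked hexamer to the final base, both counted, the GENCODE 29 transcripts have 23 bases at the first end and 24 at the last. At the first end of RAD51C, all reads were 28.2, 25.9 and 18.9 CPM in WX-02-23, 24.9, 41.5 and 23.9 in WX-02-43, 60.2, 60.5 and 50.2 in PladB and 25.4, 25.9 and 25.3 in DMSO libraries. The PladB libraries lay above all 9 others. When each 3′ end was tested as its own feature, a test added after the ends were seen, the log2 change was 1.15 (SE 0.24, adjusted p = 0.000208), with 12.9% of 14025 ends called higher. T>C reads at this end numbered 132, 75 and 94 in PladB and 20, 12 and 62 in DMSO libraries. They numbered 115, 67 and 48 in WX-02-23 and 82, 104 and 85 in WX-02-43 libraries. PladB libraries again lay above all DMSO libraries, at a log2 fold change of 2.61 (adjusted p = 0.0119), where 4.5% of 11071 ends were called higher. As CPM, the WX-02-43 libraries (53.8, 69.8 and 57.7) also lay above the DMSO libraries (11.5, 8.40 and 38.6). The WX-02-43 change of 1.63 in log2 (unadjusted p = 0.0232) did not pass after adjustment. WX-02-23 libraries, at 53.9, 55.5 and 29.3 CPM, overlapped DMSO. At the last end, T>C reads were 0 in all 3 PladB libraries and 44, 10 and 0 in DMSO libraries, and neither these (adjusted p = 0.218) nor all reads there (log2 -0.61, adjusted p = 0.347) passed. The share of RAD51C reads at the first end was 87.3 ± 6.35% in PladB and 69.1 ± 16.4% in DMSO libraries (SD, n = 3 each). Tested directly, that shift did not pass (log2 odds 1.63, 95% interval -0.12 to 3.38, adjusted p = 0.461). Over the 1120 genes with 2 or more ends the median shift was 0.73 towards the first end, and 1.79% were called higher. A rise at the first end is thus measured, and a change in the use of the 2 ends is not shown.

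**Figure D3:**
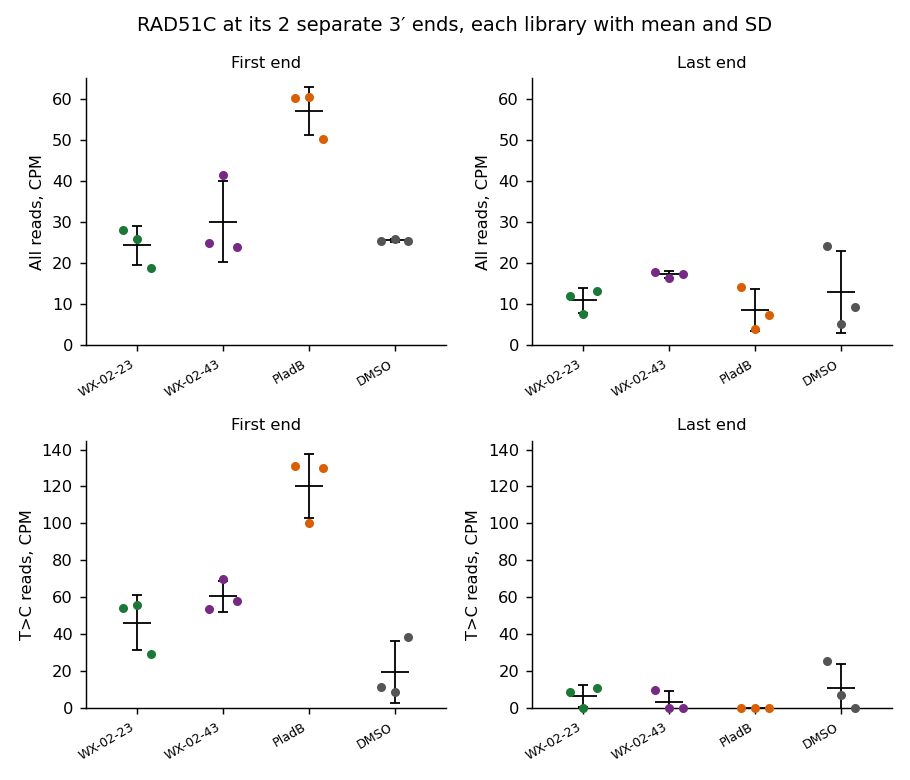
RAD51C at its first and last 3′ ends, in all reads (top) and T>C reads (bottom), as CPM for each library with the group mean and SD (n = 3). At the first end the PladB libraries lie between 50.2 and 60.5 CPM in all reads and the DMSO libraries between 25.3 and 25.9, while at the last end the groups overlap in all reads.

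Of the Fanconi anaemia genes, FANCF rose in T>C reads after PladB, and FANCC and FANCE fell in all reads. The 9 tested genes had a median of -0.26 in all reads. Over all genes, 4.72% were called higher in T>C reads and 16.3% lower in all reads. FANCF joins subunits of the core complex and is the member encoded by 1 exon, counted over 2153 bases at chr11:22644079-22646231 (hg19, minus strand). The gene gave 524, 252 and 377 T>C reads in WX-02-23, 256, 352 and 261 in WX-02-43, 447, 326 and 311 in PladB and 307, 317 and 254 in DMSO libraries. On the scale of T>C reads that is 443, 436 and 430.3 CPM in PladB libraries and 177, 222 and 158 CPM in DMSO libraries. The groups did not overlap, and the log2 change was 1.23 (SE 0.28, adjusted p = 0.00245), which was 0.44 (adjusted p = 0.284) under scaling to all reads. In all reads FANCF was at 67.7, 49.1 and 54.9 CPM in WX-02-23, 34.2, 70.8 and 48.2 in WX-02-43, 73.9, 63.3 and 76.3 in PladB and 62.3, 63.7 and 63.1 in DMSO libraries, where PladB did not differ from DMSO past the threshold (log2 0.18, 95% interval -0.21 to 0.57). FANCG, which binds FANCA in the core complex, gave 118, 46 and 137 T>C reads in WX-02-23, 28, 133 and 67 in WX-02-43, 67, 121 and 54 in PladB and 56, 43 and 141 in DMSO libraries. PladB and DMSO values overlapped, and the log2 change of 1.01 did not pass (adjusted p = 0.381).

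FANCC, a core complex subunit, was at 29.3, 38.8 and 28.8 CPM in WX-02-23, 30.8, 23.5 and 31.7 in WX-02-43, 20.4, 20.1 and 13.4 in PladB and 27.2, 22.6 and 40.3 in DMSO libraries in all reads. Each PladB library was under each DMSO library, for a log2 fold change of -0.74 (SE 0.26, adjusted p = 0.0289). The call was lost without DMSO replicate 3 (log2 -0.47, adjusted p = 0.255) or PladB replicate 3 (adjusted p = 0.146). FANCC too has 2 ends in the files, and tested alone its main, last end fell (log2 -0.86, adjusted p = 0.0153), where 15.8% of all ends were called lower. FANCE, the subunit that binds FANCD2, had 176, 26 and 165 reads in WX-02-23, 85, 174 and 125 in WX-02-43, 61, 0 and 43 in PladB and 106, 123 and 189 in DMSO libraries. PladB replicate 2 had none, and PladB libraries held at most 61 reads where DMSO libraries held at least 106. The log2 change in all reads was -1.93 (SE 0.76, adjusted p = 0.049). It was lost without DMSO replicate 2 (adjusted p = 0.0620), DMSO replicate 3 (0.151) or PladB replicate 2 (0.112). No PladB library had a T>C read of FANCE, and that difference from DMSO missed the threshold (adjusted p = 0.0521). FANCD2 and FANCI, the pair that the core complex ubiquitinates, had changes in all reads of 0.46 (adjusted p = 0.199) and 0.17 (adjusted p = 0.591). FANCA, the ligase FANCL and the translocase FANCM were at -0.26, -0.44 and -1.31, and none of these passed.

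The labelled share of all members summed was 10.9 ± 0.82% in WX-02-23, 10.0 ± 0.612% in WX-02-43, 6.82 ± 0.741% in PladB and 9.64 ± 0.175% in DMSO libraries (SD, n = 3 each). Over all coding genes it was 9.64%, 9.10%, 5.44% and 9.45% in the same groups. Every PladB library lay below every DMSO library in both sums, which were not tested. Without FANCF, the member with the most T>C reads, the other members were at 9.30%, 8.79%, 4.55% and 8.45%. Estimates of the labelled share after PladB were below 0 for 26 of 34 members and for 9767 of all 12027 genes. Tested gene by gene, BRCA1 was the 1 member of 34 called, and lower, where 8.71% of all genes were called and 8.7% were lower. Its share was 1.69, 5.3 and 2.19% in WX-02-23, 2.74, 4.05 and 5.45 in WX-02-43, 0.399, 0 and 0.12 in PladB and 5.63, 4.01 and 2.98 in DMSO libraries. The log2 odds changed by -4.63 (SE 0.80, adjusted p = 0.00315), against a median of -1.26 over all genes and -1.60 over the members. FANCF, the gene that rose in T>C reads, was at 34.7, 39.4 and 40.3% in WX-02-23, 46.3, 29.4 and 32.5 in WX-02-43, 33.7, 38 and 29.7 in PladB and 27.7, 31.9 and 24 in DMSO libraries. Its PladB and DMSO shares overlapped (log2 odds 0.40, adjusted p = 0.685). The shares of NBN, BLM, EXO1 and RAD50 had unadjusted p under 0.05 and adjusted p of 0.124 to 0.195. With BRCA1, that is 5 of 34 members at unadjusted p under 0.05, beside 3001 of all 12027 genes tested.

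**Figure D4:**
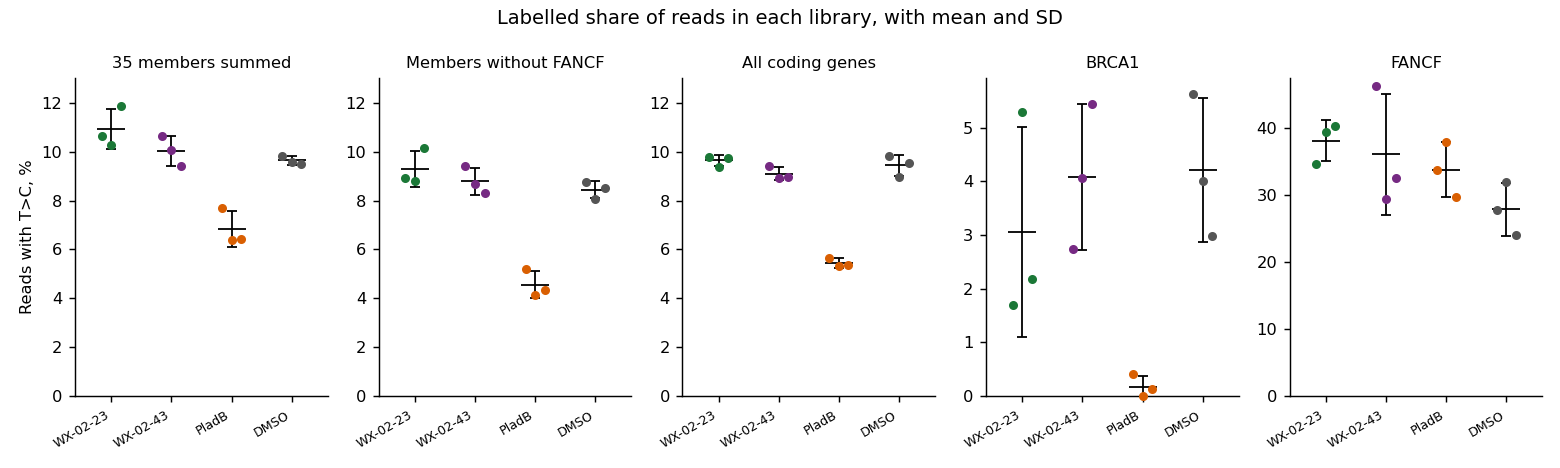
Share of reads with T>C in each library, in %, for the 35 members summed, the members without FANCF, all coding genes, BRCA1 and FANCF, with group mean and SD (n = 3). The PladB libraries lie below the DMSO libraries in the first 4 panels, at 0 to 0.399% for BRCA1, and overlap them for FANCF.

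Most members have many exons. FANCF has 1 exon and XRCC2 has 3, and 29 of the 34 members tested in all reads have more than 10 by GENCODE 29. Of the 12889 tested genes with an exon count, 3859 have 11 to 20 and 1731 have over 20. Over all genes tested in T>C reads, the median log2 change after PladB was 0.77 for the 207 genes of 1 exon, 24.2% of which were called higher, and -0.95 for the 1369 genes of more than 20 exons, 0.657% of which were called higher. FANCF was at 1.23. The 12 members of more than 20 exons had a median of -1.65. Among them BRCA1 with 24 exons and BLM with 22 were called lower. TP53BP1 with 28 exons and FANCA with 43 had estimates of 0.96 and 0.28, which did not pass. Whether exon number bears on the change of any member was not tested. RAD51C, with at most 9 exons, rose by 1.98 where genes of 6 to 10 exons had a median of -0.28. Its 301 T>C reads in PladB libraries all lay at the first end, that of a transcript of 2 exons. Genes of 2 to 5 exons had a median of -0.07 in T>C reads, with 8.26% called higher. Among the members themselves the rank correlation of exon number with the change after PladB was weak, at -0.10 in T>C reads (n = 32 genes) and 0.14 in all reads (n = 34 genes). It was -0.20 and -0.18 over all genes tested. These correlations are across genes of the same libraries and are descriptions. Genes of 2 to 5 exons had a median of 0.12 in all reads, while XRCC2 was at -1.12.

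Promoters of 32 members, from 250 bases before to 50 after the start, were matched by symbol in RefSeq (GRCh38.p14). They were searched on both strands for TTCCCGC (reverse GCGGGAA), the core letters of sites bound by E2F factors, which drive genes of DNA replication, and for CCAAT (reverse ATTGG), bound by NF-Y. TTCCCGC was found in 12 of 32 members (37.5%) and in 8.93% of 14109 promoters, and CCAAT in 15 of 32 (46.9%) and in 36.1%. Of the 9 members that fell in all reads, 5 hold TTCCCGC and 3 hold CCAAT. The promoters of BRIP1, which fell and holds both, and of FANCF, which rose in T>C reads and holds CCAAT alone, are shown with the matches in capitals.
BRIP1 promoter, chr17:61863479-61863778, minus strand: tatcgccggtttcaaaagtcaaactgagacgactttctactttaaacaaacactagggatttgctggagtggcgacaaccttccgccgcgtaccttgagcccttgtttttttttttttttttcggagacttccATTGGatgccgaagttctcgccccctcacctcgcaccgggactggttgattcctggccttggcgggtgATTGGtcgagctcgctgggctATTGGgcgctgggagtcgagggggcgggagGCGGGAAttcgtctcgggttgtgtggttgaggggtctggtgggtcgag
FANCF promoter, chr11:22625774-22626073, minus strand: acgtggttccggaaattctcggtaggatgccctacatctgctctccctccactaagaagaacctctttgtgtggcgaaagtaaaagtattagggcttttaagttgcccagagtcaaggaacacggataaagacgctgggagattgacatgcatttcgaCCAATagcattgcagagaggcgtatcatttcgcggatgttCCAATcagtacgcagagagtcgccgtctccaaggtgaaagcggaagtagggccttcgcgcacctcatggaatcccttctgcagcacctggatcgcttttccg

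A list of 60 other genes of recombination, crosslink repair and end joining gave 7 higher and 17 lower in all reads after PladB, with 36 not called and a median log2 change of -0.14, beside the background of 30.1% called. In T>C reads 1 of its 59 tested genes rose and 5 fell, beside 10.6% of all genes called. The lowest adjusted p in all reads belonged to TOP3A, the topoisomerase partner of BLM (log2 -1.77, adjusted p = 1.47e-07). RAD1, a subunit of the checkpoint clamp that TOPBP1 meets, fell by 1.11, and the nucleases MUS81 and ERCC4 fell by 1.5 and 3.51 on the log2 scale. PAXIP1, an adaptor that binds TP53BP1, fell by 2.00. The genes that rose included H2AFX, the histone that MDC1 reads (log2 0.71, adjusted p = 1.25e-06), and XRCC6, the Ku70 subunit of end joining (log2 0.59, adjusted p = 2.74e-06). Of 26 S phase genes 2 rose and 7 fell in all reads after PladB, and of 16 p53 targets that damage induces 2 rose and 5 fell. None of the 3 lists held a gene called for a stereoprobe in T>C reads, all reads or labelled share.

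With the stereoprobes, no member was called in T>C reads, all reads or the labelled share, whether each was set against DMSO or WX-02-23 against WX-02-43. The share of all genes called was low too. In T>C reads it was 0.224% for WX-02-23 against DMSO, 0.0933% for WX-02-43 against DMSO and 0.0466% for WX-02-23 against WX-02-43, and in all reads 0.698%, 0.167% and 0.152% in that order. In labelled share it was 0.00831%, 0.0% and 0.0%. These small counts changed with the libraries fitted: 92 genes were called for WX-02-23 in all reads. The count was 61, 41 or 46 without WX-02-23 replicate 1, 2 or 3. A fit with fewer libraries also has less power, so the drop cannot be laid to a particular library. At an unadjusted p under 0.05, the members counted 1, 2 and 1 for WX-02-23 against DMSO in T>C reads, all reads and labelled share. They counted 0, 1 and 0 both for WX-02-43 against DMSO and for the pair. Over all genes, 486 of 10722, 1147 of 13178 and 382 of 12027 had such a p for WX-02-23. The counts were 409, 772 and 353 for WX-02-43 and 306, 727 and 323 for the pair. FANCM, MRE11, FANCG, RAD54L and WRN, described below, were picked by that p. DESeq2, run on T>C reads and all reads, also called 0 members in each of these comparisons. The T>C reads of FANCM were 0 in all WX-02-23 libraries and 43, 0 and 19 in DMSO libraries (unadjusted p = 0.0351, adjusted p = 1), and in labelled share the member was MRE11 (unadjusted p = 0.0430, adjusted p = 1). For WX-02-23 in all reads they were FANCG, at 65.1, 60.1 and 58.9 CPM against 79.1, 89.5 and 86 CPM in DMSO libraries, and RAD54L, at 30.1, 34.1 and 24 CPM against 14.5, 20.1 and 16.3 CPM. The log2 changes of FANCG and RAD54L were -0.47 (adjusted p = 0.225) and 0.79 (adjusted p = 0.287), and neither passed. For WX-02-43 it was WRN, at 5.26, 3.54 and 1.62 CPM against 10.1, 11.1 and 6.08 CPM in DMSO libraries (log2 -1.39, adjusted p = 0.819).

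The 2 stereoprobes were given at the same dose and time, so they form 1 matched pair. In all reads the member with an unadjusted p under 0.05 between them was RAD51C, with a log2 difference of -0.42 and an interval of -0.84 to -0.01 (adjusted p = 0.865). For BRCA1 the log2 difference of WX-02-23 from WX-02-43 in all reads was 0.01, with a 95% interval of -0.27 to 0.29. Each stereoprobe differed from DMSO for BRCA1 by 0.16 (-0.12 to 0.44) for WX-02-23 and 0.15 (-0.13 to 0.43) for WX-02-43. In T>C reads the BRCA1 interval for the pair was -2.27 to 1.40, so changes of several fold in its newly made RNA were not detectable at this depth. For BRIP1 the difference between the stereoprobes in all reads was 0.03 with an interval of -0.60 to 0.65, and for XRCC2 it was 0.05 with -0.45 to 0.55. FANCF had the narrowest T>C interval of the called members, -0.32 to 0.79 around a difference of 0.24. PladB was given at another dose than the stereoprobes, and their values stand side by side above without a test between them.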

How the data were processed

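SLAM-seq was run on 12 libraries, 3 per group. Per the file headers, slamdunk 0.4.3 produced the deposited files, which give per 3′ interval read counts, T>C read counts, conversion counts and the authors' CPM; the submitters' processing notes name hg19. Only the deposited counts were tested. Of 29255 intervals, 5460 noncoding and 709 spike-in ones were left out, 42 of 43 gene names turned into dates were restored, and 24 pseudoautosomal copies on chromosome Y were dropped. Overlapping intervals of a gene counted once, the one with the most reads standing for them, and separate ends were summed. A library made without 4-thiouridine was not analysed here, and T>C reads that errors or variants could give were not subtracted.

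Counts were fitted with edgeR 4.0.16 (R 4.3.3) by quasi-likelihood over all 12 libraries, using 1 term for group, TMM factors and the filterByExpr filter, and p-values were adjusted over all genes by Benjamini-Hochberg. Labelled share was fitted as T>C against other reads of each library, for genes with a mean of at least 20 reads. Floors are 3 counts per library. The members and lists were chosen with earlier results of these data known. Values in every library are given for members called in any comparison and for the 6 with most T>C reads, which is the rule for named genes, and up to 8 called genes of the other list are named by adjusted p. Separate ends, the share at the first end and the shortest overlapping interval were added after the data were seen. Nothing in the labels says that the 3 libraries of a group were grown apart, so p-values measure only their spread, which may be technical. Alternatives were DESeq2 1.42.0, other scaling, filters and intervals, left-out libraries and a replicate block. Scripts were tested on simulated counts, with 50 genes changed in PladB at each fold. In T>C reads 1 was recovered at 2-fold, 14 at 4-fold, 0 at 0.5-fold and 3 at 0.25-fold. All reads gave 24, 43, 21 and 34 in that order. An absent call therefore does not show that a gene was unchanged.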

Additional observations from a re-analysis of the deposited data

Results flagged for a closer look

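A pair of values came from data outside the comparisons, the wide windows that noncoding transcripts of a member add around its coding interval. For BARD1 the reads of that window outside the coding interval averaged 48.9 ± 5.04 CPM in PladB libraries, against 37.7 ± 6.85 CPM in DMSO libraries (SD, n = 3 each), and every PladB library was above every DMSO library (45.9 to 54.7 against 32.1 to 45.4 CPM). T>C reads of the same window went the other way, at 57.5, 0 and 88.5 CPM in PladB and 137, 145 and 109 CPM in DMSO libraries. They were at 118, 18.2 and 50 CPM in WX-02-23 and 154, 108 and 65.8 CPM in WX-02-43 libraries. Low values were thus present in WX-02-23 too. The share of other windows without overlap was not counted. For FANCB, which had next to no reads in its coding interval, T>C reads of the window averaged 21.6 ± 3.03 CPM in WX-02-43 libraries, against 14.6 ± 3.64 CPM in DMSO libraries. None of these differences was tested, and the window of FANCB held 229 reads in the 3 WX-02-43 libraries and 270 in the 3 DMSO libraries.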

How the results depend on the processing

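No member named with a call changed direction under any alternative run. The count of members called in T>C reads after PladB was 4, and was 1 when only the 2 groups were fitted and 2 to 3 when a library was left out. In labelled share the count was 1, against 2 by converted T positions and 1 to 2 with a library left out. In all reads it was 10, and 8 to 10 with a library left out. The summed labelled share of the members in DMSO libraries was 9.64%, against 8.94% with overlapping intervals counted more than once. With a library left out, the summed share ran from 10.5% to 11.3% in WX-02-23, 9.74% to 10.4% in WX-02-43, 6.39% to 7.05% in PladB and 9.54% to 9.71% in DMSO. The stereoprobe counts stayed at 0 under all alternatives run.

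Of the single members, 200 values kept their side of the threshold and 27 lost it. When only the 2 groups were fitted, BRCA1 (adjusted p = 0.0668) and RAD51C (0.0863) lost their T>C calls and FANCC (0.0639) and FANCE (0.138) their calls in all reads. FANCE was also lost with DESeq2 (0.0545) and with the plain sum over intervals (0.0856). Over all genes, PladB T>C calls were 1140, against 1961 with DESeq2, 493 with the 2 groups alone (65.5% of them higher, against 44.4%) and 1834 scaled to all reads. Labelled share calls were 1048, against 309 with the shift shared by all genes removed, 31.1% of them higher rather than 0.191%. Over the stereoprobe comparisons, DESeq2 called 69, 47 and 28 genes in T>C reads, against 24, 10 and 5, and 146, 40 and 38 in all reads, against 92, 22 and 20 (WX-02-23, WX-02-43, the pair). With no filter on low counts they were 140, 36 and 33 in all reads, and with the plain sum over intervals 53 for WX-02-23 and 12 for the pair, or 13 and 2 in T>C reads. Leaving out a DMSO library gave 554 to 636 labelled share calls for PladB. Leaving out 1 library gave 41 to 86 calls for WX-02-23 in all reads (41 without WX-02-23 replicate 2, 46 without its replicate 3, 61 without its replicate 1), 13 to 29 for WX-02-43 (13 without WX-02-43 replicate 2, 14 without its replicate 1 or DMSO replicate 2) and 7 to 11 for the pair, under each library left out. In T>C reads it gave 12 to 23 for WX-02-23 (12 without WX-02-23 replicate 2, 15 without its replicate 1 or DMSO replicate 2, 16 without its replicate 3), 8 to 14 for WX-02-43 and 1 to 3 for the pair.

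Replicate numbers did not pair the libraries: same-numbered libraries correlated at -0.02 to 0.03 in T>C reads and -0.07 to 0.07 in all reads after the group means were removed. With a replicate block, 4 members were called in T>C reads, 10 in all reads and 1 in labelled share after PladB, and 1089 rather than 1140 genes in T>C reads. Depth limits T>C reads most, since 16 of the 35 members had a mean under 25 such reads per library.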
